A study of Mus musculus with 12 samples.

Results

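Primary mouse hepatocytes infected with an adenovirus carrying GFP (labelled Ad-GFP, the GFP group) were compared with primary hepatocytes from mice with floxed Cebpa alleles (labelled Cebpafl/fl, the WT group). These are the control groups of a study of C/EBPα, a transcription factor of mature hepatocytes encoded by Cebpa, and they hold 6 of the 12 RNA-seq libraries, with 3 in each group. The members were chosen by group label and not by any measured value. The remaining 6 libraries came from Cebpa{delta}Alb hepatocytes (KO), in which Cre driven by the albumin promoter deletes the floxed alleles, and from hepatocytes that received an adenovirus carrying mouse Cebpa (Ad-m-Cebpa, OE), and they are used below only where named. Floxed alleles, kept by the study on a C57BL/6N background, were the only genetic feature named for WT, whereas the label of the GFP group named the virus and no genotype. Time in culture, time after infection, the mice from which the GFP cells were taken and the days of preparation are not given in the labels of these libraries. For other assays, the study describes virus-treated cells as wild-type, with a time after infection, and floxed cells as coming from mice on chow, without tying this to the libraries used here, so the effects of virus, culture, mouse source and batch cannot be told apart in any value below. The labels call the 3 libraries of each group biological replicates without saying whether each came from its own mouse, so the p-values measure the spread between these libraries only.

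The mature hepatocyte secretes most plasma proteins, makes bile acids, clears ammonia through the urea cycle, makes glucose during fasting and oxidises drugs with cytochrome P450 enzymes, and these genes are held on by a network of liver transcription factors that includes C/EBPα and HNF4α. Hepatocytes in the adult liver are quiescent and contact each other through keratin-anchored junctions, while hepatocytes placed in monolayer culture are known to spread, to build stress fibres and to lose many of these functions. Fetal hepatocytes secrete alpha-fetoprotein and divide. The 7 markers used to check the cells were therefore Alb (albumin), Cyp2e1 (a P450 of pericentral hepatocytes), Fabp1 (liver fatty acid binding protein), Afp (alpha-fetoprotein), Mki67 (a nuclear antigen of dividing cells), Krt8 (the type II keratin of simple epithelia) and Vim (vimentin, an intermediate filament of mesenchymal cells).

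The promoters of 4 genes that the comparison turns on are shown first. Genes that were lower and genes that were higher in the GFP libraries carry the letters of the same general promoter element. All 4 hold the CCAAT box, CCAAT or ATTGG on the other strand: Alb and Cyp2e1, which were lower, and the mitotic genes Cdk1, the kinase that starts mitosis, and Ccnb1, its cyclin partner, which were higher. In the bases searched, Cyp2e1 alone of the 4 also holds the TATA box, searched as TATAAA. Each line gives the last 120 bases before the RefSeq transcription start on GRCm38.p6, read 5′ to 3′ on the strand of the gene, with the matched letters in capitals. Where a gene has more than 1 RefSeq start, the one farthest upstream was used. For Alb the gene start in GENCODE M21 lies downstream of it, at chr5:90460897, and the bases between were not searched.

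Alb, chr5:90460750-90460869, plus strand: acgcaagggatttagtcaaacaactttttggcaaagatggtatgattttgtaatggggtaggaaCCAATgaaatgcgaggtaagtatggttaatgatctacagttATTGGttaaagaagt

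Cyp2e1, chr7:140763699-140763818, plus strand: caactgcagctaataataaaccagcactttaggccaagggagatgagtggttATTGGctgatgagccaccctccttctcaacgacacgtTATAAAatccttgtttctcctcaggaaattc

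Cdk1, chr10:69352913-69353032, minus strand: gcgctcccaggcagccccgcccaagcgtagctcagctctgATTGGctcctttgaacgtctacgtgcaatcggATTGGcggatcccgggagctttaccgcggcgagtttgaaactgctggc

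Ccnb1, chr13:100786487-100786606, minus strand: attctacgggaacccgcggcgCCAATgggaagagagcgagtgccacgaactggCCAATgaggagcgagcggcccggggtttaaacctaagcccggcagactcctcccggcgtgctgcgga

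The CCAAT letters nearest to the start begin 15 bases before it in Alb, 68 bases before it in Cyp2e1, 48 bases before it in Cdk1 and 67 bases before it in Ccnb1, and the TATA box of Cyp2e1 begins 31 bases before the start. Within 250 bases before the start, searched on both strands, the CCAAT box was present in 8 of the 21 promoters matched among 25 genes of secreted liver proteins (38.1%) and in 27 of the 35 promoters matched among 43 genes of S phase and mitosis (77.1%), against 34.5% of all 27025 promoters in the table. The CCAAT box was also in 17 of 21 promoters (81.0%) of genes of amino acid shortage and the unfolded protein response. Of these 21 genes 7 were higher and 10 lower in GFP, so a high share was not particular to genes that rose. The TATA box was present in 10 of the 17 promoters matched among 19 drug-metabolising P450 genes (58.8%), against 13% of all promoters. These shares describe letters in a window and not binding of a factor.

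Expression was measured in expected counts estimated by RSEM. Levels of 1 gene across libraries are given below as normalised CPM, the counts per 1000000 of the library size after scaling with TMM (trimmed mean of M values), and levels of different genes are compared only as TPM, which is corrected for transcript length. The WT libraries held 20966339 to 23261800 counts and the GFP libraries 20467466 to 22132226. The composition of the RNA differed between the groups: the 10 most abundant genes took 19.1% to 19.4% of the counts in WT and 7.24% to 8.03% in GFP, genes of the mitochondrial genome took 5.95% to 6.92% and 1.58% to 1.76%, and 11711 to 11817 against 13719 to 13962 genes had at least 10 counts. With such a shift in composition, the scaling sets the zero point. The median log2 difference (GFP minus WT) over all genes was 0.13 after TMM and 1.37 on library totals, and 2645 of the 11468 called genes then pointed the other way. On library totals 2600 genes were more than 8-fold higher and 530 more than 8-fold lower, against 1781 and 963 after TMM.

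Of 13760 genes tested, 83.3% differed between the groups at an adjusted p under 0.05 by the quasi-likelihood F test of edgeR with Benjamini-Hochberg adjustment. In the GFP libraries 6186 genes (45.0%) were higher and 5282 (38.4%) were lower. More than 2-fold differences were found for 3805 genes that were higher (27.7%) and 3113 that were lower (22.6%), and more than 8-fold differences for 1781 (12.9%) and 963 (7.0%). These shares are the background against which the counts of each gene group below are to be read. The values of the groups did not overlap for 11744 of the 13760 genes tested. A gene without counts in 1 group passed the filter on low counts only through the other group. Such a gene could be called in 1 direction only. The biological coefficient of variation was 15.1% within WT and 4.65% within GFP.

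Albumin mRNA stood at 115513, 119505 and 112608 normalised CPM in WT against 11222, 11161 and 10696 in GFP, a log2 difference of -3.39 ± 0.12 (SE; adjusted p = 4.27e-08). The groups did not overlap, yet Alb remained the gene with the highest TPM in both, at 54555 ± 962 (SD, n = 3) in WT and 14078 ± 299 in GFP. Cyp2e1 fell further, from 9802, 8959 and 11121 to 11.6, 10.7 and 10.6 normalised CPM (-9.83 ± 0.15, adjusted p = 1.63e-09). Fabp1 fell from 2292, 3237 and 2030 to 2.40, 2.31 and 1.97 (-10.14 ± 0.25, adjusted p = 8.53e-09). After TMM the ratio of WT to GFP was 911 for Cyp2e1 and 10.5 for Alb. Both falls were smaller on library totals, with log2 differences of -8.60 for Cyp2e1 and -2.16 for Alb. By TPM, Cyp2e1 was at 5327 in WT and 15.9 in GFP. In bulk RNA, fewer cells that express a gene and less RNA of it per cell cannot be told apart.

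The markers of fetal, dividing and mesenchymal cells went the other way. Afp was at 0.428, 0.339 and 0.665 normalised CPM in WT and at 161, 173 and 154 in GFP (8.39 ± 0.14, adjusted p = 1.91e-09). Mki67 was at 0, 0.542 and 0.133 in WT and at 76.1, 70.5 and 79.0 in GFP (8.33 ± 0.29, adjusted p = 5.00e-08). Vim was at 0.0713, 0.135 and 0.532 in WT and at 672, 648 and 654 in GFP (11.33 ± 0.25, adjusted p = 5.08e-09). All 3 were near the limit of detection in every WT library and abundant in every GFP library. Krt8 was already expressed in WT, at 238, 244 and 189, and reached 2000, 1995 and 2051 in GFP (3.17 ± 0.11, adjusted p = 4.84e-08). The hepatocyte label of the WT libraries was thus met by all 3 of its markers, while the GFP libraries kept a high level of Alb and had nearly lost Cyp2e1 and Fabp1.

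**Figure D1:**
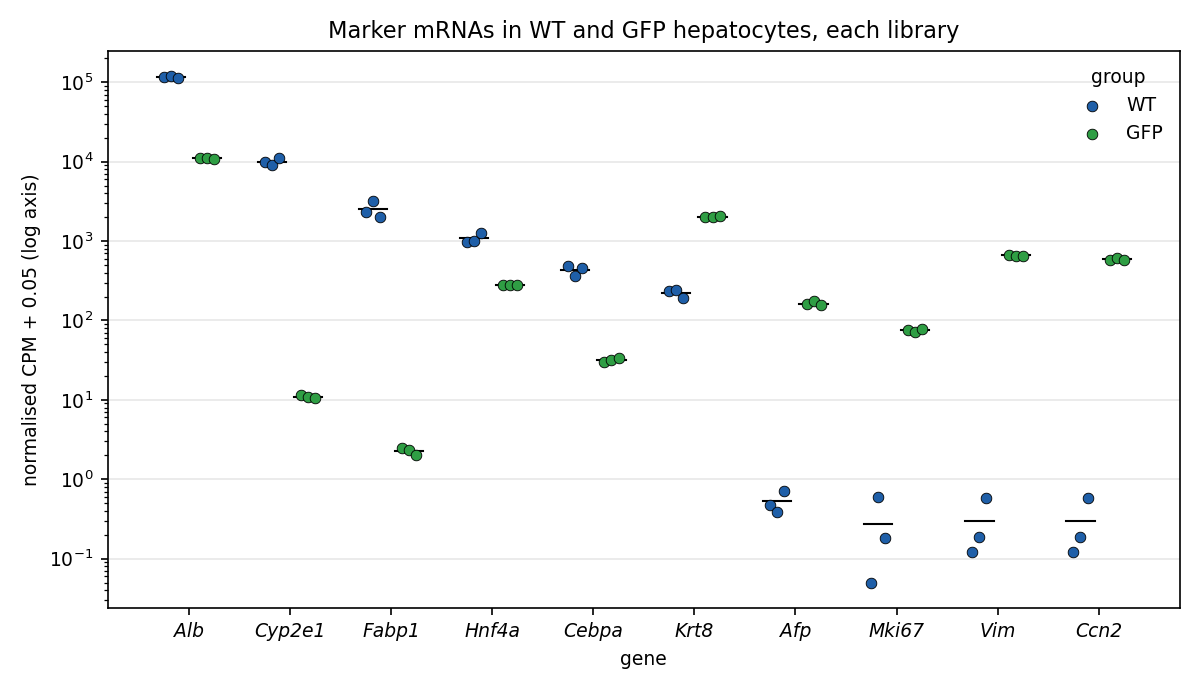
Normalised CPM (log axis, 0.05 added) of 10 genes in each of the 3 WT and 3 GFP libraries, with a line at the group mean. Points of the groups are separate for every gene shown, as they are for 11744 of the 13760 genes tested. Alb, Cyp2e1, Fabp1, Hnf4a and Cebpa are lower and Krt8, Afp, Mki67, Vim and Ccn2 are higher in GFP.

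The genes of mature hepatocyte function fell together, to very unequal depths. Of 25 genes of secreted liver proteins, 24 were lower and none higher, with a median log2 difference of -3.50 against 0.13 for all genes. Among the plasma proteins, Apoa1 (the main protein of high density lipoprotein) fell from 10457, 10850 and 11914 to 924, 915 and 898 normalised CPM (-3.60 ± 0.09), and Ttr (the carrier of thyroxine) fell from 5791, 5978 and 5100 to 831, 854 and 831 (-2.75 ± 0.09). The clotting factor gene Fga fell more, from 5536, 7752 and 7908 to 154, 136 and 143 (-5.61 ± 0.17). The 1 member that did not pass was Hpx, which encodes the haem scavenger hemopexin, with 3556, 4973 and 9986 in WT and 4736, 4354 and 4478 in GFP (-0.45, adjusted p = 0.235); Hpx is named because it was the exception, after its values were seen. By TPM, Hpx moved from rank 37 in WT to rank 5 in GFP.

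The lists of amino acid breakdown and of drug-metabolising P450s had lower medians than the secreted proteins. All 31 genes of the urea cycle and amino acid breakdown were lower (median -5.42), 28 of them more than 8-fold, and their summed level fell from between 53513 and 64445 normalised CPM in WT to between 1158 and 1208 in GFP. Cps1, the first enzyme of the urea cycle, was at 13569, 9680 and 12347 in WT and at 156, 135 and 146 in GFP (-6.35 ± 0.17). Hpd, of tyrosine breakdown, fell from 3082, 2244 and 2476 to 2.71, 3.95 and 4.20 (-9.49 ± 0.23). The drop of Hpd was among the deepest of this group, and no member kept its WT level. Of 19 P450s and partners tested, 17 were lower (median -5.39) and 1 was higher, and their sum fell from between 29508 and 32072 to between 1197 and 1253. The exception was Cyp2b10, the P450 induced through the nuclear receptor CAR, with 227, 149 and 107 in WT and 398, 371 and 378 in GFP (1.25 ± 0.23, adjusted p = 0.00117). The receptor itself, Nr1i3, was among the largest falls of all genes, from 565, 495 and 424 to 0.154, 0.0585 and 0.0954 (-12.17 ± 0.22). Cyp2b10 and the gene of its receptor therefore moved in opposite directions in the same libraries. Of the major drug-metabolising P450s, Cyp3a11 kept the most, at 2014, 1372 and 1268 in WT and 414, 376 and 395 in GFP (-1.97 ± 0.17), with a TPM of 627 ± 175 against 432 ± 18.7.

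Bile acid synthesis and transport showed 19 of 20 genes lower (median -4.99). Cyp7a1, the rate-limiting enzyme of bile acid synthesis, had the largest fall among the genes named by the rule, from 275, 268 and 200 to 0.0616, 0.0585 and 0 normalised CPM (-12.39 ± 0.29). Slc10a1, the sodium-dependent importer of bile acids from blood, fell from 614, 624 and 590 to 1.57, 1.52 and 1.72 (-8.57 ± 0.09), and Abcb11, the exporter into bile, fell from 774, 789 and 771 to 7.79, 8.36 and 9.39 (-6.51 ± 0.09). The named genes of uptake, synthesis and canalicular export were thus all lower. The 1 member that rose was Abcc4, an exporter of the basolateral membrane, from 0.570, 0.271 and 0.266 to 4.87, 5.29 and 4.36 (3.71 ± 0.27).

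Of 24 genes of fatty acid oxidation and ketone synthesis, 22 were lower (median -2.59) and 1 was higher. Fabp1 and the peroxisome proliferator-responsive Cyp4a14 were the deepest falls of this group, Cyp4a14 from 395, 360 and 950 to 0.585, 0.731 and 0.445 (-9.90 ± 0.55). The hormone gene Fgf21 was the riser, at 1.35, 0.542 and 0.864 in WT and 2.37, 1.87 and 2.51 in GFP (1.29 ± 0.31, adjusted p = 0.00453), both low levels. In sugar metabolism, 14 of 15 genes of gluconeogenesis, glycogen and liver-type sugar enzymes were lower (median -3.94). Pck1, which encodes the cytosolic enzyme that commits carbon to gluconeogenesis, was at 1546, 5556 and 5528 in WT and at 1.51, 1.2 and 1.11 in GFP (-11.68 ± 0.67), and G6pc, the last enzyme of glucose release, fell from 718, 510 and 657 to 0.739, 0.702 and 0.414 (-9.97 ± 0.23). Pck1 was lower in WT replicate 1 than in the other two WT libraries, and the groups were still far apart.

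Several glycolytic genes that are widely expressed outside the liver rose. Aldoa, the muscle and general form of aldolase, rose from 102, 83.6 and 93.6 to 422, 427 and 415 (2.18 ± 0.08), and its TPM was 69.4 ± 11.5 in WT and 795 ± 10.5 in GFP. The general hexokinase Hk1 rose from 0, 0.0677 and 0.332 to 37.6, 43.3 and 39.0 (8.14 ± 0.30). Pkm, the pyruvate kinase of proliferating tissues and muscle, rose from 1.64, 1.56 and 1.40 to 306, 337 and 293 (7.67 ± 0.11). The list as a whole was mixed after TMM, with 9 of 15 tested higher, 2 lower and a median of 0.65. On library totals 13 were higher and 1 lower (median 1.87, against 1.37 for all genes).

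Most genes of both ends of the liver lobule fell. Of 19 pericentral genes tested 17 were lower (median -3.90), and of 18 periportal genes 15 were lower (median -4.58). Cyp1a2, a pericentral P450, fell from 1018, 730 and 890 to 4.16, 3.83 and 3.82 (-7.80 ± 0.16), and Cyp2f2, a periportal one, fell from 2516, 3892 and 2934 to 27.5, 29.5 and 28.3 (-6.77 ± 0.19). Glul, glutamine synthetase of the innermost pericentral cells, differed among the WT libraries (642, 199 and 441) and was at 38.1, 39.6 and 38.1 in GFP (-3.47 ± 0.38). Genes of each zone also rose, the periportal Apoa4, an apolipoprotein, from 94, 96.5 and 120 to 446, 466 and 424 (2.10 ± 0.10) and Ctsc, cathepsin C, from 13.8, 13.7 and 25.6 to 74.3, 72.0 and 70.8 (2.03 ± 0.21), and the pericentral Ahr, the aryl hydrocarbon receptor, from 52.8, 55 and 57.4 to 69.4, 67.9 and 70.5 (0.33 ± 0.05).

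Transcription factors of hepatocytes had a smaller median fall than the lists of liver enzymes above, with 25 of 30 lower, none higher and a median of -2.31 (without WT replicate 1, 2 were called higher, and without WT replicate 3, 1 was). On library totals 8 were higher and 19 lower (median -1.06). Cebpa was at 481, 361 and 451 normalised CPM in WT and at 29.7, 31.5 and 33.7 in GFP (-3.77 ± 0.12, adjusted p = 3.14e-08). As a check of the labels, its TPM was 154 ± 27.7 in WT, 31.4 ± 2.20 in GFP, 0.26 ± 0.25 in KO and 10298 ± 408 in OE, so the GFP control held less Cebpa mRNA than the floxed control and more than the deleted cells. Hnf4a, the nuclear receptor that holds much of the hepatocyte programme, fell from 977, 990 and 1270 to 277, 279 and 279 (-1.95 ± 0.11), and the fall was smaller on library totals (-0.72) and in TPM (227 ± 40.8 against 184 ± 1.99). Nr0b2, the bile acid-induced corepressor SHP, fell most deeply in this list after Nr1i3, from 33.2, 68.7 and 32 to 0.216, 0.263 and 0.127 (-7.74 ± 0.48). The 5 factors that did not pass were Foxa1, Foxa2, Cebpd, Gata4 and Gata6, named here because they were the exceptions. Foxa2, a pioneer factor of the endoderm, was at 33.6, 23.8 and 29.3 in WT and 32, 32.7 and 31.8 in GFP, and on library totals it was higher in GFP (1.39).

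**Figure D2:**
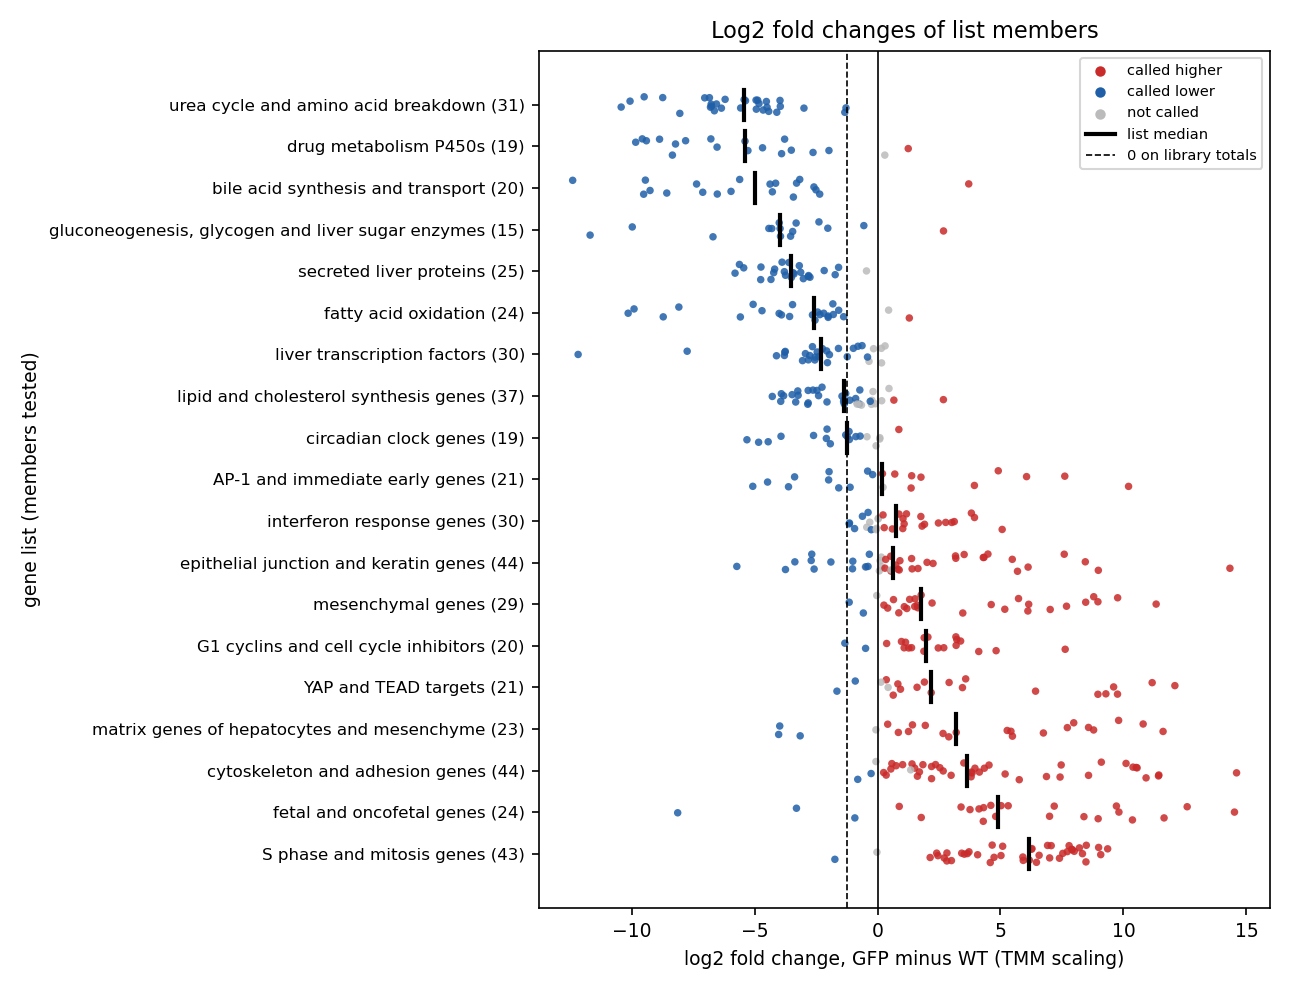
Log2 difference, GFP minus WT, after TMM for each tested member of 19 gene lists, with the list median marked and a dashed line where 0 lies on library totals. Lists of hepatocyte function sit almost wholly below 0 (median -5.42 for the urea cycle and amino acid breakdown), and lists of division, fetal expression and cytoskeleton sit above it (median 6.17 for S phase and mitosis).

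Of 31 fetal and oncofetal genes listed, 24 passed the filter on low counts, and 21 of these were higher and 3 lower (median 4.91). The list held 9 genes without a count in WT, and those of them that passed could only be called higher. The summed level of the list nevertheless fell, from between 1434 and 1722 normalised CPM in WT to between 1007 and 1031 in GFP, whereas its summed TPM rose from between 514 and 593 to between 1169 and 1196. Most of the WT sum was Slc38a4, an amino acid transporter, which fell from 1352, 1653 and 1503 normalised CPM to 155, 153 and 151 (-3.29 ± 0.09). Igf2, the fetal growth factor, had no count in WT and was at 3.79, 4.53 and 4.96 normalised CPM in GFP, at least 65-fold higher. Hmga2, a chromatin protein of embryonic and tumour cells, had no count in WT and was at 16.1, 17.8 and 17.1 (at least 248-fold higher). Afp and these genes were seen in every GFP library. Cd24a, a surface protein of fetal and progenitor liver cells, had no count in WT and was at 128, 123 and 119 in GFP (at least 1804-fold higher). Sox4, a transcription factor of progenitors, had 1 count over the WT libraries and was at 177, 172 and 170 in GFP, a ratio of 7589 with a 95% counting interval from 1362 to 299800. The fetal programme was not complete, since H19, the imprinted RNA that accompanies Igf2, was at most 0.191 normalised CPM in any of the 6 libraries and Gpc3, glypican-3, was at 0 in WT and at most 0.117 in GFP. Meg3, another imprinted RNA, fell from 20.9, 1.49 and 7.78 to 0.0308, 0 and 0.0636, with 3 counts over the GFP libraries and a WT to GFP ratio of 322 (95% counting interval 109.5 to 1569). By TPM, Afp at 213 ± 13.4 was far below Alb in GFP. Spp1, which encodes the secreted matrix protein osteopontin and is a main subject of the study, was at 7.06, 18.1 and 12.4 normalised CPM in WT and 45.9, 41.7 and 41.7 in GFP (1.78 ± 0.26, adjusted p = 0.000252). The floxed and GFP controls thus gave different starting levels for Spp1, 9.10 ± 3.86 and 83.3 ± 3.86 TPM, beside 408 ± 58.6 in KO and 15.4 ± 0.773 in OE.

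Genes of DNA synthesis and mitosis rose together. Of 43 genes 41 were higher, 35 of them more than 8-fold, with a median of 6.17, and the summed level of the list rose from between 201 and 219 normalised CPM in WT to between 2135 and 2202 in GFP. Cdk1 was at 0.285, 0.745 and 1.2 in WT and 45.6, 46.5 and 45.9 in GFP (5.92 ± 0.22, adjusted p = 6.53e-08), and Top2a, the topoisomerase of dividing cells, was at 0.0713, 0.610 and 0.332 and at 47.3, 46.6 and 45.3 (7.06 ± 0.23). Prc1, which bundles the microtubules of the central spindle, had 3 counts over the WT libraries and was at 39.4, 36.6 and 36.4 in GFP, a ratio of 547 with a 95% counting interval from 187.1 to 2655. S phase and late mitosis were both represented. The 1 gene that was lower was Tk1, thymidine kinase of S phase, at 54.6, 45.2 and 40.6 in WT and 14.1, 13.8 and 14.3 in GFP (-1.73 ± 0.11), with a TPM of 36.1 ± 4.46 against 28.9 ± 0.530. Tk1 had the highest TPM of the list in WT and stood against the direction of all the others that passed.

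Inhibitors of the cell cycle rose beside the genes of division. Of 20 genes of G1 cyclins and cell cycle inhibitors 18 were higher (median 1.97). Cdkn1a, the p53-responsive inhibitor p21, was at 49.4, 68.7 and 130 in WT and at 525, 546 and 537 in GFP (2.69 ± 0.32, adjusted p = 7.18e-05), and Ccng1, another p53 target, rose from 36.5, 40.6 and 35.6 to 385, 399 and 388 (3.38 ± 0.07). Myc, the growth regulator, rose from 3.78, 4 and 3.06 to 63.5, 61.7 and 62.8 (4.12 ± 0.09). Ccnd1, the cyclin of mitogen-driven G1 progression, changed little by comparison, from 3.42, 4.88 and 5.19 to 9.89, 7.40 and 9.29 (0.97 ± 0.18, adjusted p = 0.0012). The mRNA of cyclin D1 was thus among the smaller rises while p21 mRNA was abundant, at 773 ± 20.5 TPM in GFP against 5.90 ± 0.856 for Ccnd1. How many cells were dividing cannot be read from bulk RNA.

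**Figure D3:**
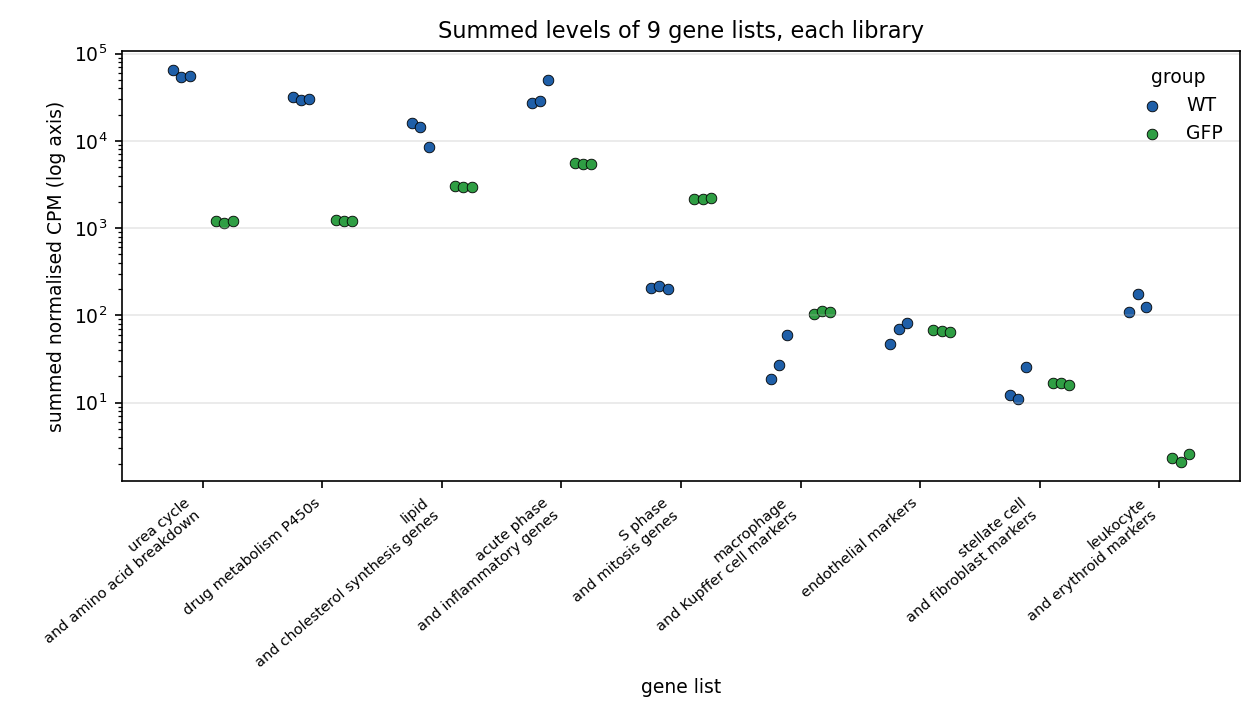
Summed normalised CPM (log axis) of 9 gene lists in each of the 3 WT and 3 GFP libraries. The S phase and mitosis sum lies between 201 and 219 in WT and between 2135 and 2202 in GFP, the urea cycle sum moves the other way, and the acute phase sum is highest in 1 WT library, at 49606.

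Of 44 genes of cytoskeleton and adhesion, 40 were higher and 2 lower in GFP (median 3.66), and all 44 were higher on library totals. Their summed level rose from between 3403 and 3749 normalised CPM to between 15407 and 15564. Flna, which cross-links actin, rose from 5.13, 4.47 and 6.52 to 931, 893 and 947 (7.42 ± 0.14), and Tmsb10, an actin monomer-binding thymosin, rose from 0.0713, 0.474 and 0.332 to 831, 859 and 820 (11.44 ± 0.22). Tmsb10 was ranked 11368 by TPM in WT and 12 in GFP. Myl9, a myosin light chain of contractile cells, had no count in WT and was at 15.2, 13.1 and 15.2 (at least 212-fold higher), and Tubb6, a tubulin, rose from 8.06, 4.88 and 8.64 to 158, 169 and 172 (4.53 ± 0.17). Actb, the general actin gene often used as a reference, rose from 919, 798 and 860 to 2441, 2445 and 2471 (1.51 ± 0.08). The shift in Actb was therefore larger than its spread in either group.

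Epithelial genes split. Of 44 tested genes of junctions and keratins 26 were higher and 12 lower (median 0.65). On library totals 35 were higher and 7 lower (median 1.88, against 1.37 for all genes). Cdh1, E-cadherin of adherens junctions, was at 68.5, 89.5 and 60.2 in WT and 77.6, 77.9 and 79.3 in GFP (0.11 ± 0.13, adjusted p = 0.465). It was higher in GFP on library totals (1.35) and without WT replicate 2 (0.28). Krt18, the keratin partner of Krt8, rose with it, from 145, 143 and 118 to 1211, 1235 and 1239 (3.18 ± 0.10). By TPM both partners moved by a similar factor, Krt8 from 110 ± 12.6 to 2684 ± 56.5 and Krt18 from 94.0 ± 9.36 to 2318 ± 46.4. Cldn4, a claudin of ducts and other epithelia, had no count in WT and was at 101, 120 and 105 in GFP (at least 1587-fold higher). The gap junction gene Gjb1, connexin 32 of hepatocytes, fell from 679, 720 and 633 to 13.5, 13.2 and 11.8 (-5.72 ± 0.09), and Cldn2, a pore-forming claudin, fell from 51.8, 67.3 and 61.7 to 9.15, 9.33 and 9.42 (-2.70 ± 0.10). Esrp2, the splicing regulator of adult hepatocytes, fell from 161, 138 and 144 to 23.1, 24.1 and 22.3 (-2.67 ± 0.08). Cldn4 of ducts and Gjb1 of hepatocytes thus mark the opposite ends of this list.

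Of 39 mesenchymal genes listed, 29 passed the filter on low counts, of which 26 were higher and 2 lower (median 1.77). The list held 6 genes without a count in WT, and those of them that passed could only be called higher. Beside Vim, Lox, which cross-links collagen, rose from 0.0713, 0.135 and 0.0665 normalised CPM to 84.8, 82.9 and 83.8 (9.76 ± 0.12), and Cd44, the hyaluronan receptor, rose from 0, 0.203 and 1.33 to 38.7, 39.5 and 34.2 (6.15 ± 0.44). Tgfb2, a ligand of the TGFβ family, had 2 counts over the WT libraries and was at 26, 25.4 and 24.6 in GFP, a ratio of 556 with a 95% counting interval from 153.7 to 4593. Of the transcription factors known to drive a mesenchymal transition, Snai1 was at most 0.143 in WT and 0.414 in GFP and was too low to be tested, and Zeb1 and Zeb2, named after their values were seen, rose by 0.65 and 1.62 on the log2 scale. The 2 that were lower, Snai2 (-0.58) and Prrx1 (-1.15), did not hold: on library totals Snai2 was higher in GFP (0.66) and Prrx1 did not pass (0.07), and without WT replicate 3 none of the list was lower. Fn1, fibronectin, which hepatocytes also secrete, was already abundant at 2413, 2668 and 2929 in WT and was at 3582, 3391 and 3699 in GFP (0.41 ± 0.09).

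Most matrix genes and most targets of the mechanosensitive YAP and TEAD factors were higher as well. Of 23 matrix genes tested 19 were higher and 3 lower (median 3.20), and of 21 YAP and TEAD genes 17 were higher and 2 lower (median 2.18). Thbs1, the matrix protein thrombospondin 1, had 2 counts over the WT libraries and was at 151, 167 and 159 in GFP, a ratio of 3489 with a 95% counting interval from 965.7 to 28810. Col4a1 of basement membranes rose from 23, 41.9 and 27.7 to 234, 227 and 229 (2.90 ± 0.19), whereas Col18a1, the hepatocyte collagen that carries endostatin, fell from 1710, 1897 and 1841 to 210, 199 and 207 (-3.14 ± 0.07). The summed level of the matrix list overlapped between the groups in normalised CPM, at 4471 to 5050 in WT and 4853 to 5206 in GFP. In TPM it did not overlap, at 761 to 839 in WT and 2049 to 2194 in GFP. Ccn2, the prototype target of YAP, rose from 0.0713, 0.135 and 0.532 to 574, 615 and 575 (11.17 ± 0.25), and Ankrd1, another target, had no count in WT and was at 24.4, 22.4 and 22.3 (at least 336-fold higher). Ccn1, which is close kin to Ccn2, was already at 43.7, 42.9 and 23.3 in WT and rose to 136, 138 and 138 (1.91 ± 0.21). By TPM, Ccn2 went from 0.220 ± 0.175 to 634 ± 30.1 and Ccn1 from 17.3 ± 5.25 to 177 ± 2.76, so the order of these targets turned.

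**Figure D4:**
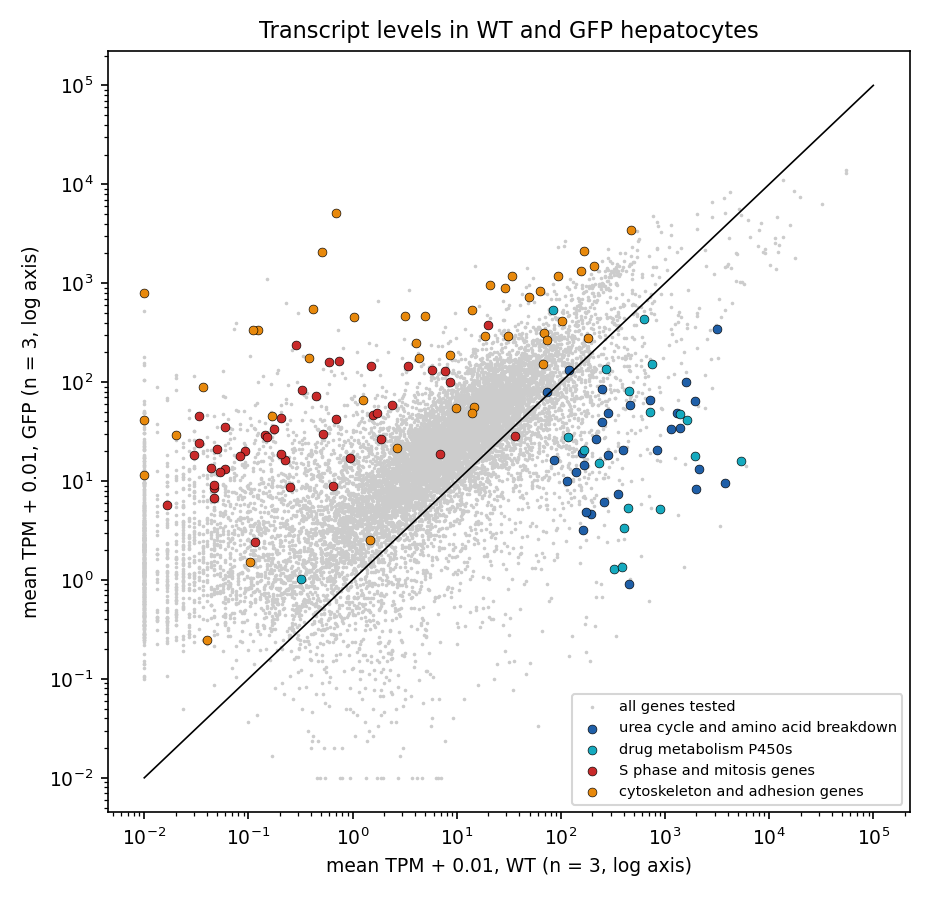
Mean TPM of each gene in WT (x axis) and GFP (y axis), both on log axes with 0.01 added and n = 3 libraries, with 4 gene lists in colour and a diagonal of equal TPM. Most genes of urea cycle and amino acid breakdown (blue) and drug metabolism P450s (teal) lie below the diagonal, while S phase and mitosis genes (red) and cytoskeleton genes (orange) lie above it, except Tk1 at 36.1 TPM in WT and 28.9 in GFP. Most grey points also lie above it.

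Among the 15 largest rises the named genes covered several functions. Sprr1a, a cornified envelope protein also known from injured neurons, had no count in WT and was at 134, 151 and 127 normalised CPM in GFP (at least 2009-fold higher). S100a6, a calcium-binding protein of proliferating and spread cells, had no count and was at 137, 129 and 127 (at least 1913-fold higher). Slc7a11, the cystine importer, had no count and was at 77.2, 79.6 and 77.6 (at least 1142-fold higher). Gpnmb, a lysosomal membrane glycoprotein, had no count and was at 70.2, 69.2 and 65.3 (at least 997-fold higher). The other members were Cd24a, Cldn4 and Sox4, described above, and Xirp2, Bex3, Glipr2, Ampd3, Nrk, Fezf1, Cyp4f18 and Rab15, for which the bounds lay between 431 and 656. All but Sox4 were without a count in the 3 WT libraries. The 15 largest falls were mainly liver enzymes and hormones. Elovl3, a fatty acid elongase, fell from 694, 651 and 547 to 0.277, 0.0877 and 0.127 (-11.87 ± 0.23), Hamp, the iron hormone hepcidin, from 943, 718 and 944 to 0.339, 0.322 and 0.350 (-11.31 ± 0.19), and Inmt, a methyltransferase, from 853, 725 and 558 to 0.277, 0.175 and 0.223 (-11.60 ± 0.26). Hsd3b5, an enzyme of male liver, fell from 169, 207 and 185 to 0.0924, 0.0585 and 0.127 (-10.91 ± 0.17), and Bhmt, of methionine synthesis, from 12769, 9848 and 7731 to 10.04, 8.89 and 9.48 (-10.06 ± 0.25). The remaining falls of this set, beside Cyp7a1, Nr1i3, Pck1 and Fabp1, were Serpina4-ps1, Slc22a30, Sult2a8, Haao, Nlrp6 and Hamp2, at -11.31 to -9.99. Hamp and Hamp2 are near-identical copies, so their reads may have been split between them.

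Stress-responsive genes did not move as a block. Of 21 AP-1 and immediate early genes 10 were higher and 10 lower (median 0.20). This is 47.6% each, against 45.0% and 38.4% of all genes, so the list was divided much as all genes were. Fos fell from 111, 337 and 179 to 5.79, 6.29 and 6.55 (-5.07 ± 0.42) and Egr1 from 208, 201 and 162 to 15.1, 16.1 and 15.2 (-3.62 ± 0.11), while the Fos-related Fosl1 had no count in WT and was at 6.10, 6.38 and 6.24 (at least 91.0-fold higher). Klf6, a zinc finger factor of injured cells, rose from 5.21, 4.06 and 4.92 to 321, 315 and 312 (6.06 ± 0.09). Fos and Egr1 were thus higher in WT, and Fosl1 and Klf6 higher in GFP. Of 19 NRF2 targets and metallothioneins 13 were higher and 4 lower (median 1.51), among them Hmox1, haem oxygenase 1, from 4.28, 5.62 and 16.2 to 138, 140 and 137 (3.98 ± 0.39) and Nqo1, a quinone reductase, from 6.13, 3.73 and 4.39 to 14.0, 13.3 and 13.3 (1.51 ± 0.16). Gstm1, a glutathione transferase of liver, fell from 1692, 1399 and 1146 to 283, 259 and 258 (-2.41 ± 0.14).

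The joint list of amino acid shortage and the unfolded protein response had no common direction, with 7 of 21 genes higher and 10 lower (median -0.02), and 11 higher and 5 lower on library totals. After TMM 33.3% were higher and 47.6% lower, against 45.0% and 38.4% of all genes. Asns, asparagine synthetase, rose from 1.28, 0.339 and 0.332 to 57.9, 58.3 and 58.9 (6.50 ± 0.25), Trib3, a target of ATF4, rose from 2.57, 4.06 and 3.39 to 45.2, 42.1 and 43.5 (3.70 ± 0.13), and Psat1 of serine synthesis rose from 0.143, 0.0677 and 0.465 to 93.6, 93.0 and 93.9 (8.65 ± 0.21). Hsp90b1, a chaperone of the endoplasmic reticulum, fell from 1380, 1548 and 1372 to 324, 301 and 302 (-2.21 ± 0.08) and Sdf2l1 from 50.7, 62.5 and 53.9 to 7.61, 7.78 and 6.17 (-2.95 ± 0.12). Hspa5, the main chaperone of that compartment (BiP), was at 1497, 1582 and 1810 in WT and 688, 675 and 660 in GFP (-1.27 ± 0.09), but it did not pass on library totals (-0.04, adjusted p = 0.680), and its TPM was 728 ± 92.8 against 778 ± 13.9. Ddit3, which encodes CHOP, was at 6.06, 8.33 and 10.5 against 9, 10.1 and 8.24 and did not pass (0.13 ± 0.19, adjusted p = 0.528), whereas on library totals it was higher in GFP (1.37).

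Genes of the antiviral interferon response had a median somewhat above that of all genes. Of 30 tested 18 were higher (60.0%, against 45.0% of all genes) and 6 lower, with a median of 0.74 against 0.13 (1.97 against 1.37 on library totals). The summed level of the list was 599 to 647 normalised CPM in WT and 632 to 740 in GFP. In TPM the sums were 440 to 468 in WT and 1077 to 1302 in GFP. Ifit2, an antiviral tetratricopeptide protein, rose from 0.428, 0.677 and 1.13 to 25.8, 24.8 and 25.5 (5.07 ± 0.20) and Oas1a, the sensor that activates RNase L, from 0.570, 0.542 and 0.199 to 5.08, 8.34 and 6.81 (3.94 ± 0.35). The best known members Ifit1 (3.78, 7.31 and 5.25 against 4.19, 6.32 and 6.27) and Irf7 (27.4, 34.1 and 29.4 against 27.2, 33.2 and 32.3) did not pass after TMM (adjusted p = 0.905 and 0.817), and both were higher in GFP on library totals (1.28 and 1.27). Isg15, a ubiquitin-like protein, rose from 3.28, 3.73 and 4.26 to 9.92, 14.1 and 14.3 (1.76 ± 0.18). In GFP replicate 1, Ifit1, Irf7, Isg15 and Oas1a were each lower than in the other two GFP libraries.

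Acute phase and inflammatory genes were divided much as all genes were, with 10 of 26 tested higher and 11 lower (median -0.43). These are 38.5% and 42.3%, against 45.0% and 38.4% of all genes. The WT libraries differed from each other in the list. Its summed level was 27084, 28851 and 49606 normalised CPM in WT and 5421 to 5608 in GFP. In TPM the sums were 10332, 11168 and 24250 in WT and 12597 to 12672 in GFP, so the groups overlapped in that unit. Saa1, serum amyloid A, was at 98.2, 154 and 942 in WT and 253, 268 and 260 in GFP, and the groups overlapped (-0.61 ± 0.73, adjusted p = 0.456), but without WT replicate 3 the gene was called higher in GFP (1.04). Lcn2, lipocalin 2, was at 24.2, 11.9 and 227 in WT and at 727, 741 and 710 in GFP (3.05 ± 0.95, adjusted p = 0.0167, and 5.33 without WT replicate 3). In both genes WT replicate 3 stood far above the other 2 WT libraries. C3, the central complement protein, fell from 15396, 14734 and 22449 to 804, 757 and 771 (-4.50 ± 0.19), while the chemokine gene Ccl2 had 2 counts over the WT libraries and was at 92.5, 91.0 and 93.6 in GFP, a ratio of 2024 with a 95% counting interval from 560.1 to 16710. The chemokine Cxcl1 went the other way, from 34.2, 124 and 155 to 19.9, 19 and 18.6 (-2.44 ± 0.47, adjusted p = 0.00133). Il6, interleukin 6, had no count in any of the 6 libraries.

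The summed markers of each other liver cell type were at most 176 normalised CPM and 213 TPM in any library. The part of other cells in the differences above was not tested. Of 19 macrophage and Kupffer cell markers 5 were tested, and their sum was 18.5, 26.7 and 58.8 normalised CPM in WT and 104 to 113 in GFP. The sum in GFP came mainly from Cd68, a lysosomal protein, at 77.1, 85.4 and 82.0 against 0.143, 0.0677 and 0.665 in WT. Adgre1, Clec4f, Timd4, Marco and Aif1 of this list had no count in GFP. Cd5l and Csf1r, also of this list, had 8 and 18 counts over the GFP libraries, against 134 and 107 over the WT libraries. Clec4f was at 1.5, 1.83 and 8.38 in WT, so WT replicate 3 was highest here as in the acute phase genes. Of 17 endothelial markers tested 5 were higher and 8 lower, and of 6 stellate cell and fibroblast markers tested 3 were higher and 2 lower. The 19 endothelial markers summed to 47.4 to 81.4 in WT and 64.1 to 67.3 in GFP, and the 18 stellate cell and fibroblast markers to 10.97 to 25.4 and 15.97 to 16.6, with Col1a1 at 0 in every WT library and Ngfr and Gfap at 0 in every GFP library. Of 11 cholangiocyte markers tested 7 were higher (63.6%), 6 of them more than 8-fold, and 4 lower (median 4.30). Bicc1, an RNA-binding protein, rose from 0.0713, 0 and 0.133 to 28.6, 24.1 and 27.1 (8.49 ± 0.28), Epcam, an epithelial adhesion protein, from 0, 0 and 0.133 to 0.893, 1.17 and 0.923 (4.30 ± 0.65), and Krt19, the duct keratin, had 1 count over the WT libraries and 2.06, 2.22 and 1.56 in GFP. The 14 cholangiocyte markers together summed to 132 to 169 normalised CPM in WT and 109 to 123 in GFP, and to 42.8 to 51.3 and 129 to 141 TPM. Of 19 leukocyte and erythroid markers 11 had no count in WT and 15 had none in GFP, and their sums of 109 to 176 and 2.11 to 2.55 came almost wholly from Alas2, the haem synthesis enzyme of red cell precursors.

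On principal components of all 12 libraries, the first component (75.0% of the variance over 15326 genes) placed the WT libraries at -148 to -142 and the GFP libraries at 112 to 114. KO lay beside WT at -144 to -134 and OE beyond GFP at 170 to 172. The median absolute log2 difference between group means was 0.981 for WT against GFP and 0.192 for WT against KO. The floxed and the GFP controls, neither of which had Cebpa deleted, therefore stood further apart on this measure than floxed and deleted hepatocytes. The second component (17.1%) separated GFP, at -106 to -105, from OE, at 85.1 to 86.8, with WT at 10.4 to 12.3. Correlations of log2 CPM were 0.986 to 0.987 within WT, 0.993 to 0.995 within GFP and 0.692 to 0.710 between them.

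**Figure D5:**
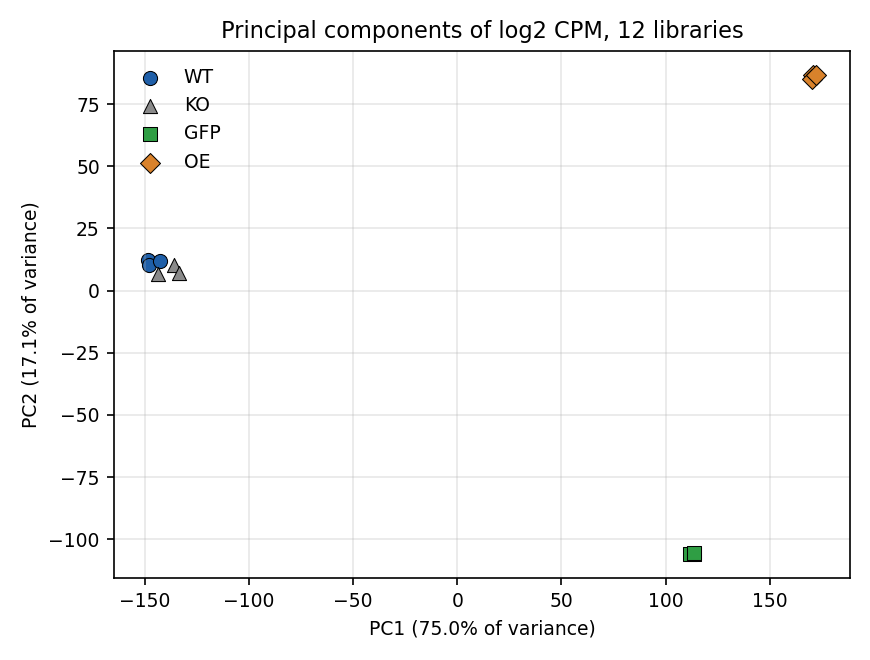
First and second principal components of log2 CPM over 15326 genes for the 12 libraries, 3 per group. The first axis, 75.0% of the variance, places WT and KO together at the left and GFP and OE at the right, and the second, 17.1%, parts GFP from OE.

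OE against KO also sets cells whose label names a virus against cells whose label names none, and it shares no library with GFP against WT. The Cebpa level differs in it in the opposite direction. In OE against KO, 16.5% of 14539 genes tested were more than 8-fold higher and 8.2% more than 8-fold lower. Of the 1781 genes more than 8-fold higher in GFP than in WT, 1141 were also more than 8-fold higher in OE than in KO, which is 64.1% of the first list and 47.4% of the second. Of the 963 genes more than 8-fold lower, 695 were shared, 72.2% of the first list and 58.3% of the second. Cyp2e1 was at -9.63 in OE against KO, Fabp1 at -11.27, Alb at -5.07, Mki67 at 6.0 and Vim at 9.23, each on the same side as in GFP against WT. Opposite calls of more than 8-fold were 8 in all. Il1rn, Myo15b and Spink1 were higher in GFP and lower in OE, and Acot3, Cebpa, Slc22a3, Trhde and Wfdc21 were lower in GFP and higher in OE; they are named because they were the exceptions. Krt8 rose in GFP against WT and was at 0.03 in OE against KO, and Afp was at 2.23 there against 8.39 here; the difference between the comparisons was not tested.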

How the data were processed

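Polyadenylated RNA had been sequenced from stranded libraries. The submitters' processing notes name Trimmomatic 0.36, STAR 2.5.1, RSEM 1.2.22, Picard 1.84 and DESeq2, and the build mm10. The deposited tables, made by the authors with RSEM, held expected counts, which are not scaled to depth, and TPM, which is scaled for length and depth, for 55450 GENCODE M21 genes in 12 libraries. Expected counts of WT and GFP, rounded, were filtered (filterByExpr), scaled by TMM and tested with the quasi-likelihood F test of edgeR 4.0.16 in R 4.3.3, with Benjamini-Hochberg adjustment over 13760 genes; the standard error is the log2 difference over the square root of F. DESeq2 1.42.0 and limma 3.58.1 on log2(TPM + 1) were alternatives. Steps were tested on simulated data in which few genes were changed. These lacked the shift in composition seen between WT and GFP, so they cannot decide the choice of scaling.

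The 34 gene lists (824 of 826 entries matched) and the members were chosen with earlier results of these data known, so lists are described by counts and medians, without a set test. Genes named were the key genes and 7 markers, the 15 largest rises and falls with a mean of at least 10 normalised CPM, the 3 largest called changes on each side in each list and members called against a list's median. Some genes that this rule names are not reported here. A fold against a group without counts was computed against 3 counts over that group; its bounds and the 95% intervals cover counting error only. Reads of near-identical genes may be split. RefSeq promoters were matched by symbol for 75.6% of tested genes, 68.8% of those more than 8-fold lower and 74.7% of those more than 8-fold higher, below 80%, so the motif check over these sets is void and no shares are given.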

Additional observations from a re-analysis of the deposited data

How the results depend on the processing

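The counts of called genes moved with the scaling, the unit and the filter on low counts. On library totals, 10410 genes were higher and 2074 lower in GFP, 8254 and 1431 more than 2-fold, with 2600 more than 8-fold higher and 530 more than 8-fold lower. With limma on log2(TPM + 1), which changes unit, filter and model together, these counts were 9861, 1632, 7695, 1049, 1109 and 285, and with log2(TPM + 0.1) they were 9823, 1619, 8097, 1123, 2117 and 406. Without a filter on low TPM, limma on log2(TPM + 1) gave 12243 higher and 1926 lower, 8015 and 1084 more than 2-fold, and 1105 and 285 more than 8-fold. Testing against a 2-fold difference gave 3288 higher and 2666 lower, and a stricter filter on low counts left 2283 genes more than 2-fold higher and 776 more than 8-fold higher. DESeq2 and its size factors, upper quartile scaling, group-specific variances and no filter kept each of these counts within 1.5 times the reported one. Leaving out 1 library in turn gave 5942 to 6302 genes higher and 5054 to 5313 lower, 3853 to 3987 and 3124 to 3177 more than 2-fold, and 1818 to 1939 and 976 to 1029 more than 8-fold. Ddx3y reversed on library totals (0.73) and in limma on TPM (0.87 and, with 0.1 added, 0.89), as did Snai2 (0.66, 0.74 and 0.88). Saa1 lay between -1.08 and 1.04 when 1 library was left out, and reversed without WT replicate 3. In TPM in place of CPM, the log2 ratio of the summed markers, GFP over WT, was 1.48 for cholangiocytes (-0.44 in CPM), 3.65 for macrophages (1.65), 1.56 for endothelium (-0.01), 1.80 for stellate cells (0.02) and -4.20 for leukocytes and erythroid cells (-5.88). The median log2 difference over all genes tested was 0.13 after TMM and 1.33 with limma on log2(TPM + 1). The cause of the shifts in the marker sums was not tested.

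Same-numbered libraries of WT and GFP correlated at 0.01, 0.05 and 0.09 in their deviations from the group means. Differently numbered libraries correlated at -0.08 to 0.04. Values this small, from so few libraries, cannot decide whether the numbers pair them. With replicate number as a block the calls were 5978 higher and 5137 lower, 3780 and 3096 more than 2-fold, and 1789 and 965 more than 8-fold.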

Other observations

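Lipid synthesis, hormone response and clock genes of the same 6 libraries are added here as values. Of 37 genes of lipid and cholesterol synthesis tested, 2 were higher and 26 lower in GFP (median log2 difference -1.36). On library totals 10 were higher and 15 lower (median -0.13). Scd1, the stearoyl-CoA desaturase, was at 3796, 5623 and 926 normalised CPM in WT and 238, 217 and 222 in GFP (-3.93 ± 0.58), and Fasn, fatty acid synthase, was at 1587, 545 and 416 against 121, 111 and 126 (-2.84 ± 0.47, and -2.02 without WT replicate 1). The WT libraries differed from each other by more than the GFP libraries did in both genes. The 2 members that rose after TMM were lipid droplet genes, Plin2 from 258, 391 and 250 to 461, 497 and 467 (0.67 ± 0.16) and Cidec from 0.998, 2.30 and 1.73 to 11, 11.4 and 10.1 (2.68 ± 0.22).

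Of 22 growth hormone and IGF genes 16 were lower and 4 higher (median -3.03). Ghr, the growth hormone receptor, fell from 606, 722 and 614 to 67.3, 64.7 and 68.5 (-3.28 ± 0.09) and Igf1, its main hepatic target, from 757, 708 and 888 to 82.1, 83.7 and 81.1 (-3.25 ± 0.10). Igfbp1, an IGF binding protein that insulin lowers, rose from 49.3, 91.3 and 107 to 646, 667 and 629 (2.97 ± 0.26). Of 15 glucocorticoid response genes tested 4 were higher and 8 lower (median -0.41): Tsc22d3 (GILZ) fell from 277, 361 and 414 to 51.4, 54.3 and 54.1 (-2.72 ± 0.14), and Sgk1, a serum-induced kinase, rose from 16.2, 14.7 and 15.1 to 206, 215 and 201 (3.76 ± 0.07). Known glucocorticoid targets thus moved in both directions, as did all genes tested (45.0% higher and 38.4% lower).

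Of 19 clock genes 14 were lower and 1 higher (median -1.23, and 0.01 on library totals). Hlf, a clock output factor, fell from 94.0, 87.2 and 93.1 to 3.27, 3.19 and 3.15 (-4.83 ± 0.07), while Per1 was at 40.6, 50.1 and 86.0 against 65.4, 61.6 and 61.3 and did not pass (adjusted p = 0.734), although it was higher in GFP on library totals (1.33) and without WT replicate 3 (0.46). All 10 sex-biased liver genes tested were lower (median -6.24). Among sex chromosome genes Xist had no count in WT and at most 0.0877 in GFP, and the Y-linked Ddx3y was at 110, 110 and 102 in WT and 73.9, 77.8 and 74.3 in GFP, so the libraries of both groups read as male. Ddx3y was lower in GFP after TMM (-0.51) and higher on library totals (0.73).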
